A study of Mus musculus with 51 samples.

Results

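Immune checkpoint ligands are surface proteins through which tumor and myeloid cells hold back or license T and NK cells, and Ido1 is an enzyme with a like effect on T cells. The 10 genes described here were Cd274, Pdcd1lg2, Cd80, Cd86, Cd276, Pvr, Nectin2, Lgals9, Ido1 and Vtcn1, taken by gene name from the 40077 genes of the tables. No measured value entered that rule, but the list was chosen with earlier results of these data known. RNA of these genes was measured by bulk RNA-seq in 51 libraries, 35 from mouse tumors and 16 from cultured cells. The samples came from a study of UBA1, the enzyme that activates ubiquitin at the start of the ubiquitin cascade, and the comparisons ask how its loss, gain or inhibition changes tumor cells and tumors.

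There were 4 tumor experiments. B16-BL6 melanoma tumors, grown in female C57BL/6 mice, carried a control guide RNA (sgNC, 3 tumors) or were depleted of Uba1 by CRISPR (sgUba1, 4 tumors). Myc-CaP tumors, from a prostate cancer line driven by Myc and grown in male FVB mice, carried sgNC (3 tumors) or sgUba1 (7 tumors). A second set of Myc-CaP tumors carried an empty lentiviral vector (EV, 3 tumors) or overexpressed Uba1 from a viral promoter (Uba1 OE, 4 tumors), and another came from mice given vehicle (6 tumors) or the UBA1 inhibitor TAK-243 by vein at 25 mg/kg (5 tumors). Mice were 6 to 8 weeks old at injection, and tumors grew under the skin of both flanks, so some may share a mouse. Cultured Myc-CaP cells formed 2 experiments of 8 libraries, with 2 libraries per group. The first crossed NC against sgUba1 with PBS against interferon gamma (IFN-γ). The second crossed untreated wild-type cells against 50 nM TAK-243 for 18 hours with no IFN-γ against IFN-γ. IFN-γ was given at 1 ng/mL for 18 hours. The depleted lines were sublines grown from single cells, so the guide and the clone cannot be told apart, and which of the guides a library carried was not given in the labels. Nothing in the labels says that the libraries of a cell group came from separate cultures, so the p-values measure the spread between these libraries only.

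Cd274 encodes PD-L1 and Pdcd1lg2 encodes PD-L2, the ligands of the inhibitory receptor PD-1 on T cells. Cd80 and Cd86, carried mainly by antigen-presenting cells, stimulate T cells through CD28 and are captured by the inhibitory receptor CTLA-4. Cd276 (B7-H3) and Vtcn1 (B7-H4) are further B7 family proteins. Pvr (CD155) and Nectin2 (CD112) bind the inhibitory receptor TIGIT and the activating receptor CD226. Lgals9 encodes galectin-9, a ligand of TIM-3, and Ido1 encodes the enzyme that opens the kynurenine pathway of tryptophan breakdown. Cd274 and Ido1 are textbook targets of IFN-γ, whose receptor acts through the kinases JAK1 and JAK2, after which factors such as IRF1 bind gene promoters.

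In build GRCm38, Cd274 (chr19:29367455-29388095) and Pdcd1lg2 (chr19:29410919-29471161) lie side by side on the plus strand. Nectin2 (chr7:19716644-19750483) and Pvr (chr7:19903578-19921160) lie near each other on the minus strand, and Ido1 lies at chr8:24584136-24597009.

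The reference table of promoters (RefSeq, mouse build GRCm38.p6) held 7 of the 10 genes. Pvr, Ido1 and Cd86 had no entry. Because the study stimulated cells with IFN-γ, promoters were searched on both strands for the IRF-type letters GAAANNGAA. The search covered the 250 bases before the RefSeq start of each gene. Gene positions above are from GENCODE, whose starts can differ. By those positions the stretches of Nectin2, Cd80 and Cd276 lie inside the gene. Cd274 and Lgals9 each held 1 match, found in 7.13% of 32851 mouse promoter stretches of this length, and the other 5 held none. The GAS-type letters TTCNNNGAA, found in 7.02% of these stretches, were also searched and had no match in any of the 7 genes. The Cd274 stretch lies at chr19:29367188-29367437 on the plus strand, with the match centred 72 bases before the start. The Lgals9 stretch lies at chr11:78984925-78985174 on the minus strand, with the match centred 50 bases before the start. Nectin2 (chr7:19749574-19749823, minus strand) is shown beside them as a stretch without GAAANNGAA. It was picked because it passed the test with IFN-γ in untreated wild-type cells, where 29.0% of all genes did. This choice says nothing about what the letters do. Capitals mark the match to GAAANNGAA on the opposite strand.
Cd274: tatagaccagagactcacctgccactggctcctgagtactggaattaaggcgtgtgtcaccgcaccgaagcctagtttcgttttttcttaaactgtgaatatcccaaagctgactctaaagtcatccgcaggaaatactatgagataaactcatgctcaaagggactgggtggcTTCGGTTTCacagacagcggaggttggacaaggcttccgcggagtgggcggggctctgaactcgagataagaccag
Lgals9: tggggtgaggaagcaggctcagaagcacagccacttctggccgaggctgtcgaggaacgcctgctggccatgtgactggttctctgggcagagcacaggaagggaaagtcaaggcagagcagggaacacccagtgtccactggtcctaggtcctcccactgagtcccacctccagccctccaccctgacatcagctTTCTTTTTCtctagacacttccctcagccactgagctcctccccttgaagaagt
Nectin2: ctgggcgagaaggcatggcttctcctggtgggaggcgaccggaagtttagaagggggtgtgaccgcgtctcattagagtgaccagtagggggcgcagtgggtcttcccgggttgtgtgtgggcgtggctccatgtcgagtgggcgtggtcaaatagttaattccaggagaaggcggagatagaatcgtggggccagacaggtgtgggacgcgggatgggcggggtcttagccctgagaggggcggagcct
A match is a description of the letters only and was not tested for binding.

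The tables held between 8652097 and 38032395 counts per library. CPM, counts scaled to the total of each library, compare a gene between libraries, and TPM, which also divide by transcript length, compare genes with each other. A change is a log2 fold change from edgeR with its standard error (SE), called where the p-value adjusted over all genes tested was under 0.05. Uba1 itself was lower in B16-BL6 sgUba1 tumors (208 to 247 CPM against 410 to 455; log2 fold change -0.92, SE 0.0742, adjusted p = 0.000294) and higher in Uba1 OE tumors (631 to 747 CPM against 278 to 310; 1.27, SE 0.0886, adjusted p = 0.00503). In the Myc-CaP tumors labelled sgUba1, Uba1 RNA went against the label in 4 of 7. Replicates 1 to 3 had 197, 202 and 211 CPM, and replicates 4 to 7 had 373, 361, 368 and 383 CPM, above all 3 sgNC tumors (320, 325 and 337 CPM). Every fold change of a member in these tumors is therefore also given without replicates 4 to 7. That fit called 1 of 15679 genes against 492 with them. RNA does not show the level of the protein, so these 4 tumors are not shown to lack depletion. By immunoblot the study reports partial UBA1 depletion in its sgUba1 cells. Pmel, a melanocyte gene, was at 3350 to 4250 CPM in B16-BL6 tumors and at most 3.52 CPM elsewhere, while the epithelial keratin gene Krt18 was at most 1.51 CPM in Myc-CaP tumors and 1.88 CPM in the cells, although Krt8 was present. The leukocyte gene Ptprc was at 0 in 10 of 16 cell libraries and at 4.48 to 38.6 CPM in all tumors. In tumors, fewer cells of a type and less RNA per cell cannot be told apart.

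Which ligands were expressed differed between the models. Among control B16-BL6 tumors, Pvr was the most abundant (33.1 ± 1.17 TPM, SD, n = 3), followed by Lgals9 (29.9 ± 6.56 TPM), whose tumors overlapped those of Pvr, and then Nectin2 (19.1 ± 1.56 TPM), Cd276 (15.9 ± 3.37 TPM) and Cd274 (13.02 ± 1.24 TPM), neighbours in this order overlapping. Cd80, Cd86, Pdcd1lg2 and Ido1 were each under 1 TPM on average (0.659, 0.598, 0.205 and 0.132 TPM). Vtcn1 had 0 counts in all 7 B16-BL6 tumors, which allows up to 3 counts per library. Among Myc-CaP sgNC tumors, Ido1 had the highest mean but no stable level (91.3 ± 93.3 TPM, n = 3), overlapping Lgals9 (41.8 ± 8.39 TPM). Nectin2 (26.5 ± 4.24 TPM) and Pvr (13.0 ± 2.49 TPM) followed without overlap. Cd276 (2.66 ± 0.438 TPM), Cd274 (2.45 ± 0.552 TPM) and Vtcn1 (2.31 ± 1.76 TPM) overlapped one another. Side by side, mean TPM in control B16-BL6 tumors was 5.31 times that in Myc-CaP sgNC tumors for Cd274, 5.96 times for Cd276 and 2.54 times for Pvr, and 0.722 times for Nectin2 and 0.514 times for Cd86, each without overlap of the 3 and 3 tumors. Ido1 (0.132 against 91.3 TPM) and Vtcn1 (0 against 2.31 TPM) did not overlap between these groups either, while Pdcd1lg2, Cd80 and Lgals9 did. The share of all genes without overlap was not counted, so this is no result about these members. Line, mouse strain and sex differ together between these groups, so they cannot be told apart and no test was run.

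Cultured Myc-CaP cells carried a shorter list. In untreated wild-type cells the order was Lgals9 (46.5 ± 4.38 TPM, SD, n = 2), Nectin2 (23.9 ± 1.40 TPM), Ido1 (12.3 ± 0.0969 TPM) and Pvr (11.9 ± 0.164 TPM), then Cd274 (1.11 ± 0.0599 TPM). Cd276 (0.214 TPM) and Cd80 (0.0517 TPM) were close to the limit of these libraries. Cd86, present in all 35 tumors, had 0 counts in all 16 cell libraries, and Pdcd1lg2 and Vtcn1 had at most 4 counts in any of them. These last 3 genes were therefore not tested in cells, which left 7 of the 10.

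**Figure D1:**
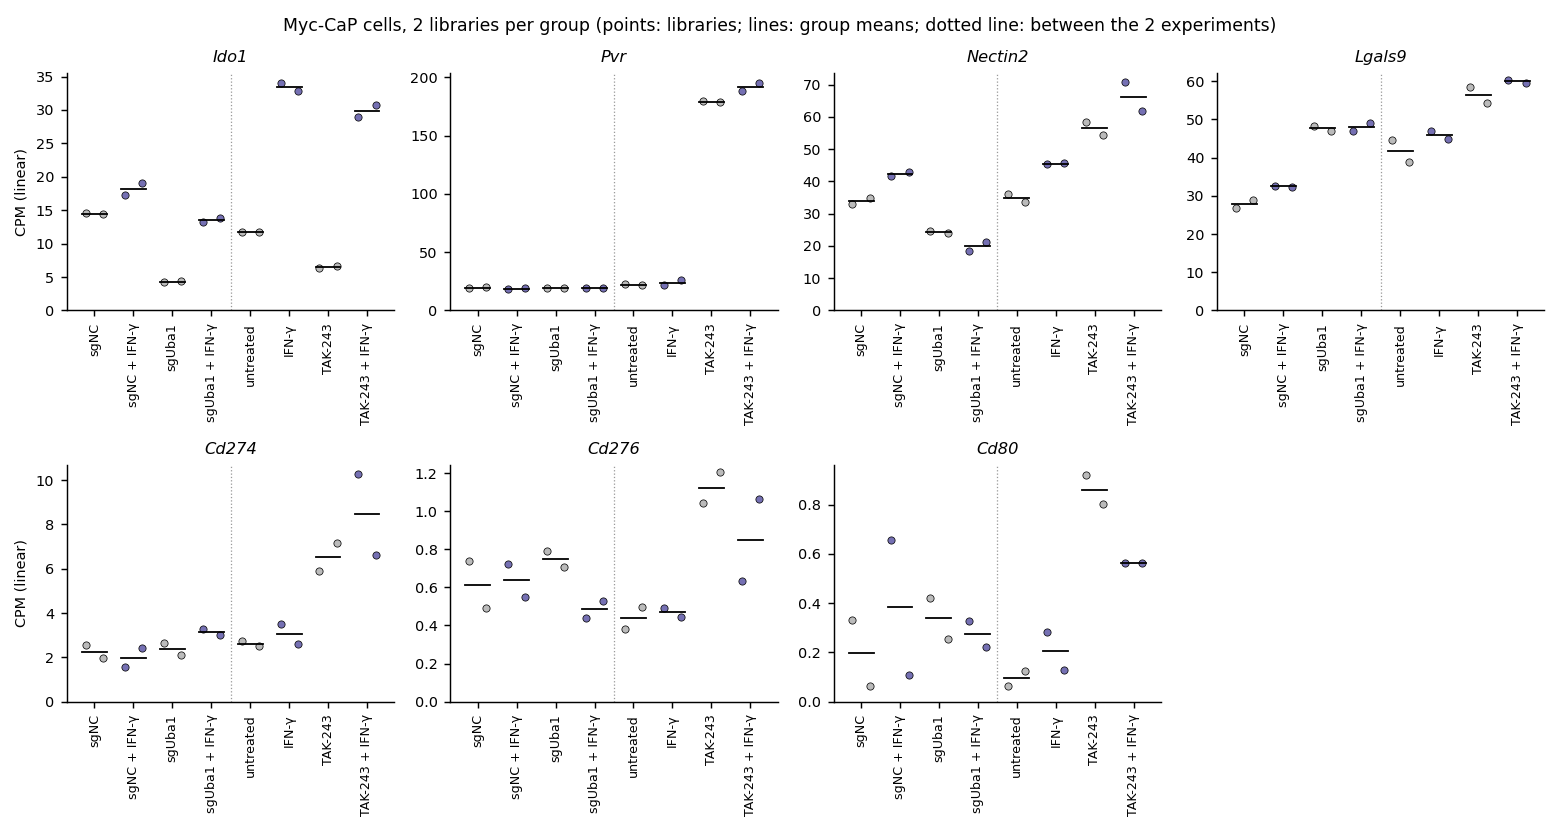
CPM (linear axes from 0) of the 7 tested genes in each of the 16 Myc-CaP cell libraries, with points for libraries, lines for the means of 2, and a dotted line between the 2 experiments; sgNC marks the cells labelled NC. Pvr stood at 179 CPM in both TAK-243 libraries against 21.9 to 22.5 CPM untreated, and Ido1 was higher with IFN-γ in every group.

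Ido1 rose with IFN-γ in all 4 settings, and by more in sgUba1 than in NC cells and with TAK-243 than without it. Untreated cells had 11.7 and 11.7 CPM, and IFN-γ raised them to 34.0 and 32.8 CPM (log2 fold change 1.51, SE 0.0954, adjusted p = 4.63e-13). Under TAK-243 Ido1 stood at 6.38 and 6.58 CPM and rose to 29.0 and 30.8 CPM (2.21, SE 0.11, adjusted p = 6.2e-15). The 2 responses differed by 0.70 (SE 0.153, adjusted p = 0.00989), a call lost without replicate 2 of the cells given IFN-γ alone (0.0597) or of those given both (0.0626). With IFN-γ present the treated and untreated cells differed by -0.16 (SE 0.0832, adjusted p = 0.0918; 95% interval -0.32 to 0.00). In the guide experiment the NC cells went from 14.6 and 14.4 CPM to 17.3 and 19.1 CPM (0.33, SE 0.0792, adjusted p = 0.0464). The sgUba1 cells went from 4.23 and 4.40 CPM to 13.2 and 13.8 CPM (1.65, SE 0.0919, adjusted p = 2.18e-06). This response exceeded that of NC cells by 1.31 (SE 0.122, adjusted p = 0.00089), yet the sgUba1 cells stayed below the NC cells both without IFN-γ (-1.75, SE 0.0931, adjusted p = 4.01e-07) and with it (-0.43, SE 0.078, adjusted p = 0.00102). The small response of NC cells was not called with another scaling (RLE, adjusted p = 0.0683) or with DESeq2 (0.166), nor in 7 of 8 fits that each left out 1 library (0.0643 to 0.273), the exception being NC replicate 1 without IFN-γ. DESeq2 gave no adjusted p for Ido1 in sgUba1 and TAK-243 cells.

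The share of all genes called puts these counts in scale. With IFN-γ, 2 of 7 tested members passed in NC cells, where 3.88% of all genes did, 1 of 7 in sgUba1 cells (2.85%), 2 of 7 in untreated cells (29.0%) and 2 of 7 in TAK-243 cells (10.5%). Of the differences between responses, 2 of 7 passed for sgUba1 against NC (4.64% of all genes) and 1 of 7 for TAK-243 against untreated (2.38%). The median log2 change of the 7 was 0.22 in NC cells beside 0.04 over all genes, -0.01 beside 0.00 in sgUba1 cells, 0.22 beside 0.04 in untreated cells and 0.10 beside 0.00 in TAK-243 cells. Irf1, which encodes a factor induced by IFN-γ, rose by 0.64 (SE 0.0657) in NC cells, 1.61 (SE 0.0641) in sgUba1 cells, 1.63 (SE 0.0672) in untreated cells and 1.65 (SE 0.0578) in TAK-243 cells. The responses of NC and untreated wild-type cells come from separate experiments, and their difference was not tested. The Irf1 response was larger in sgUba1 than in NC cells (by 0.97, SE 0.0916, adjusted p = 0.00089). With TAK-243 it differed by 0.03 (SE 0.0919, adjusted p = 0.944).

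Cd274, the PD-L1 gene, did not pass the test for IFN-γ in any of the 4 settings. The libraries had 2.54 and 1.96 CPM without and 1.54 and 2.42 CPM with IFN-γ in NC cells (log2 fold change -0.16, 95% interval -0.65 to 0.32, adjusted p = 0.74), and 2.65 and 2.09 against 3.29 and 3.01 CPM in sgUba1 cells (0.41, -0.03 to 0.85, adjusted p = 0.324). Untreated cells had 2.75 and 2.50 CPM without and 3.52 and 2.61 CPM with IFN-γ (0.22, -0.30 to 0.74, adjusted p = 0.591). With TAK-243 the values were 5.89 and 7.14 CPM without and 10.3 and 6.64 CPM with IFN-γ (0.38, -0.01 to 0.76, adjusted p = 0.257). At 40 to 146 counts per library, the values remain compatible with changes anywhere inside these intervals. Cd274 was higher in sgUba1 than in NC cells with IFN-γ present (0.65, SE 0.23, adjusted p = 0.0428), a call lost with DESeq2 (adjusted p = 0.0656) and without either sgUba1 library with IFN-γ or replicate 1 of the NC libraries with IFN-γ (adjusted p 0.0692 to 0.289).

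In culture, sgUba1 cells had less Ido1 and Nectin2 and more Lgals9 than NC cells. Without IFN-γ, 3 of 7 tested members passed, where 29.7% of all genes did, and with IFN-γ 4 of 7 (39.4%). Lgals9 had 26.9 and 29.0 CPM in NC and 48.4 and 47.0 CPM in sgUba1 cells (log2 fold change 0.77, SE 0.0598, adjusted p = 7.32e-06), and the groups did not overlap. With IFN-γ it stood at 32.7 and 32.3 against 47.0 and 49.1 CPM (0.56, SE 0.0585, adjusted p = 2.31e-05). Nectin2 had 33.1 and 34.9 CPM in NC and 24.5 and 24.1 CPM in sgUba1 cells (-0.49, SE 0.0735, adjusted p = 0.00054). With IFN-γ the gap for Nectin2 was wider, at 41.6 and 43.0 against 18.5 and 21.2 CPM (-1.09, SE 0.0733, adjusted p = 1.4e-06). IFN-γ moved Nectin2 up in NC cells (0.31, SE 0.0714, adjusted p = 0.0409, lost with RLE scaling, with DESeq2 and without any 1 of 6 libraries, at 0.056 to 0.267), while in sgUba1 cells the change was -0.29 (SE 0.075, adjusted p = 0.0645, called by DESeq2 at 0.0456). The 2 responses differed by -0.60 (SE 0.104, adjusted p = 0.0184), which was lost without any 1 of 5 libraries, both NC libraries with IFN-γ, both sgUba1 libraries without it and replicate 1 of those with it (adjusted p 0.101 to 0.191). Pvr, its partner as a TIGIT ligand, stood at 18.6 to 19.9 CPM in all 8 libraries (sgUba1 against NC -0.02, 95% interval -0.14 to 0.12, adjusted p = 0.9).

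With TAK-243, Pvr had the largest change among members with more than a few counts in cells. Its 2 untreated libraries had 22.5 and 21.9 CPM and the treated ones 179 and 179 CPM, an 8.05-fold difference (log2 fold change 3.01, SE 0.0571, adjusted p = 3.81e-27). With IFN-γ the values were 21.5 and 25.8 against 189 and 195 CPM (3.01, SE 0.0564, adjusted p = 2.24e-27). All 7 tested members passed without IFN-γ, 6 of them higher, where 66.3% of all genes passed, and 4 of 7 passed with IFN-γ, all higher (68.2% of all genes). Cd80 and Cd276 had few counts untreated and met the filter on low counts only through the TAK-243 libraries. They were thus open to the test only because they were high there. Their calls, counted here, add no support, and both also enter the medians that follow. The median log2 change of the 7 was 1.30 without and 0.86 with IFN-γ, beside 0.03 and 0.02 over all genes. Since most genes moved, levels here are relative to the rest of each library, and what a fixed number of cells held was not measured.

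Cd274 rose from 2.75 and 2.50 to 5.89 and 7.14 CPM with TAK-243 (log2 fold change 1.30, SE 0.234, adjusted p = 1.42e-05) and with IFN-γ from 3.52 and 2.61 to 10.3 and 6.64 CPM (1.46, SE 0.22, adjusted p = 8.79e-07). Treated libraries exceeded untreated ones without overlap in both settings. Nectin2 rose from 36.1 and 33.5 to 58.4 and 54.5 CPM (0.70, SE 0.0745, adjusted p = 1.4e-09), and Lgals9 from 44.6 and 38.9 to 58.5 and 54.2 CPM (0.44, SE 0.071, adjusted p = 3.02e-06). Both were also called with IFN-γ (0.54 and 0.38). Ido1 was the 1 member that fell, from 11.7 and 11.7 to 6.38 and 6.58 CPM (-0.86, SE 0.128, adjusted p = 8e-07). The costimulatory gene Cd80 rested on few reads, 1 and 2 counts untreated against 15 and 10 treated, a ratio of 9.18 with a 95% exact counting interval of 2.8 to 47.5. Cd276 went from 6 and 8 to 17 and 15 counts (1.32, SE 0.533, adjusted p = 0.0304), and this call was lost with DESeq2 (0.117) and without any 1 of the 4 libraries compared (adjusted p 0.0738 to 0.154).

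Side by side, the patterns with depletion and with inhibition of UBA1 in this line were as follows. Nectin2 fell with sgUba1 and rose with TAK-243, Pvr differed by -0.02 with sgUba1 and was 8.05-fold higher with TAK-243, and Lgals9 was higher and Ido1 lower with both. The 2 experiments were fitted apart, with separate controls, and the difference between them was not tested. Uba1 RNA itself was lower in sgUba1 cells (295 and 283 against 533 and 526 CPM) and higher with TAK-243 (594 and 565 against 452 and 445 CPM; log2 fold change 0.37, SE 0.0304, adjusted p = 5.68e-12). Macrophage markers, 8 genes in all, summed to 1.60 to 6.82 CPM in the cells against 87.9 to 455 CPM in the tumors. They were highest in the 4 TAK-243 libraries (6.02 to 6.82 CPM), led by Cd68, a lysosomal protein gene, and the part of this in the results was not tested.

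**Figure D2:**
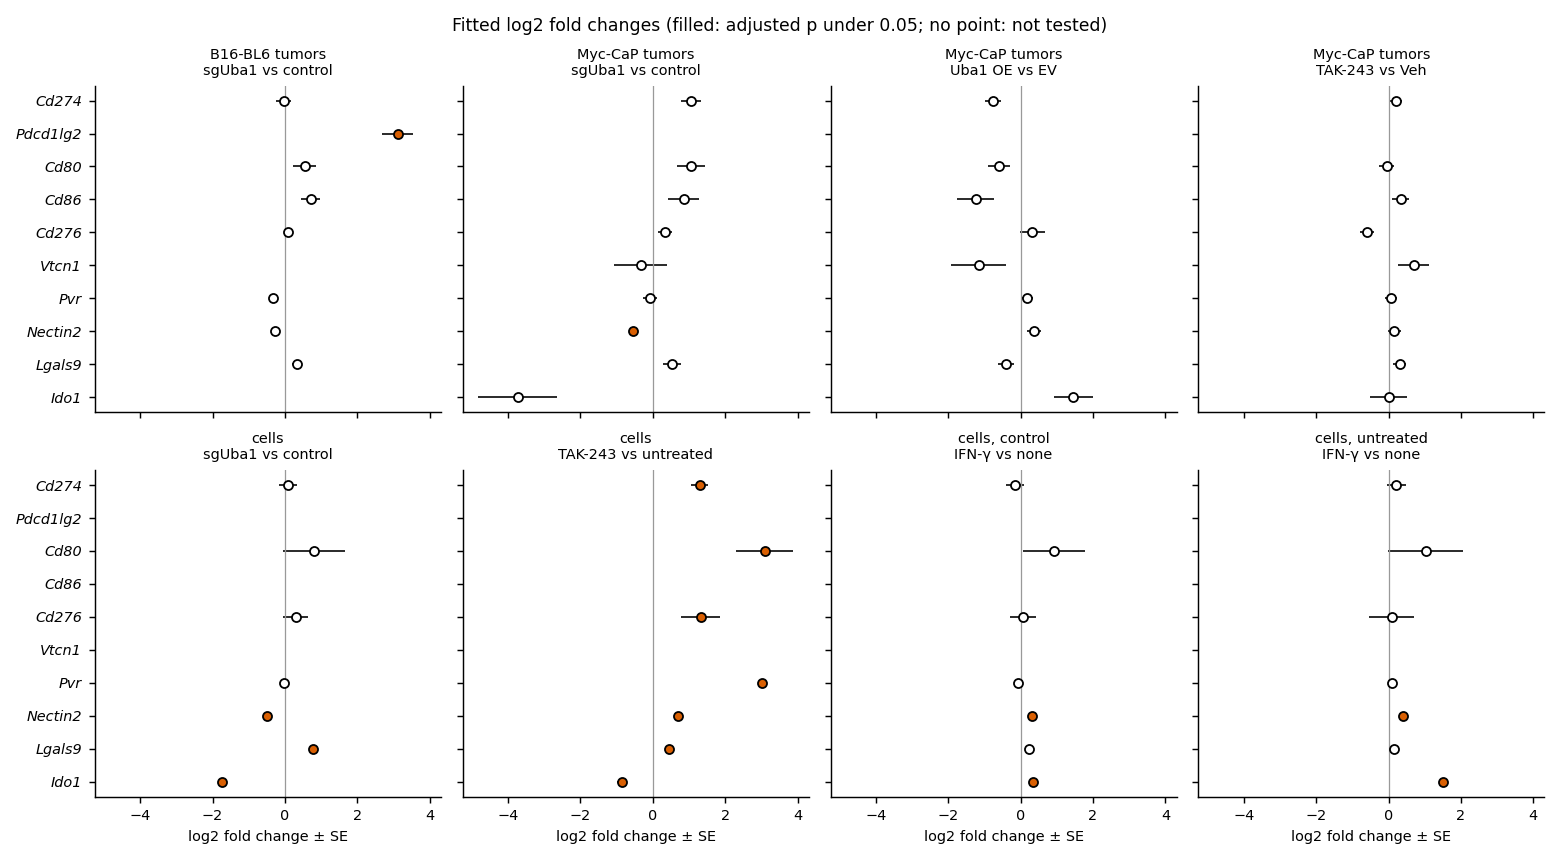
Fitted log2 fold changes (horizontal axis) with SE as bars in the 4 tumor comparisons and in 4 of the cell comparisons, with filled points for adjusted p under 0.05 and no point for genes not tested. Pvr with TAK-243 in cells lies at 3.01, Cd80 beside it rests on 3 untreated counts, and each tumor panel has at most 1 filled point.

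Related genes, in 5 lists, passed the test in the same cells in shares mostly near those of all genes, which were 29.7% with sgUba1 and 66.3% with TAK-243, both without IFN-γ, so these counts are no result about the lists. Of 11 genes for checkpoint and costimulatory receptors of T and NK cells 3 were abundant enough to test, and Tigit was higher in sgUba1 cells (log2 fold change 0.34, SE 0.0854, adjusted p = 0.0105), while Lag3, an inhibitory T cell receptor gene, was higher with TAK-243 (2.02, SE 0.259, adjusted p = 5.14e-08). Of 12 other ligand genes, 3 of 8 tested passed with sgUba1, 2 higher and 1 lower. With TAK-243, 6 of 9 passed, 3 in each direction. Cd47, whose product restrains phagocytosis by macrophages, fell from a mean of 149 to 32.7 CPM with TAK-243 (-2.19, SE 0.0538, adjusted p = 1.67e-24), and Lgals3, encoding galectin-3, rose from 64.2 to 173 CPM (1.43, SE 0.0414, adjusted p = 9.22e-23). Of 10 kynurenine pathway genes, 3 of 8 passed with sgUba1, 1 higher and 2 lower, and 4 of 7 with TAK-243, 2 in each direction. The kynurenine aminotransferase gene Kyat3 had the largest change there (-2.58, SE 0.204, adjusted p = 2.49e-12), and Ahr, the receptor that senses kynurenine, was higher in sgUba1 cells (0.85, SE 0.0668, adjusted p = 7.92e-06). Of 11 IFN-γ signaling genes, 4 of 10 passed with sgUba1, all higher, among them Ifngr1 (0.50, SE 0.0779) and Jak2 (0.44, SE 0.0495). With TAK-243, 8 of 10 passed, 6 higher and 2 lower. Socs1, the feedback inhibitor of JAK kinases, rose by 3.36 (SE 0.196) and Jak1 by 1.51 (SE 0.0327). Of 7 genes whose products stabilize or degrade PD-L1, 2 of 7 passed with sgUba1 and 6 of 7 with TAK-243, 3 in each direction. The PD-L1 stabilizer gene Cmtm6 was higher in sgUba1 cells (0.35, SE 0.0804, adjusted p = 0.00678), and Usp22, a deubiquitinase gene, rose with TAK-243 (0.93, SE 0.0497, adjusted p = 2.4e-16). In each of the 4 tumor comparisons 0 of the 38 to 42 tested genes of these 5 lists passed by edgeR, with 9 to 12 at an unadjusted p under 0.05, as were 15.0% to 23.7% of all genes.

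In B16-BL6 tumors, Uba1 depletion came with a higher level of Pdcd1lg2, the PD-L2 gene, and 1 of 8 tested members passed, where 0.724% of all genes did. The 3 sgNC tumors had 0.199, 0.116 and 0.313 CPM, from 6, 4 and 9 counts. The 4 sgUba1 tumors had 2.76, 1.75, 1.67 and 1.08 CPM, from 79, 52, 44 and 33 counts. All 4 lay above all 3 controls (8.69-fold, log2 fold change 3.12, SE 0.429, adjusted p = 0.0101). With at most 9 counts per sgNC tumor, Pdcd1lg2 met the filter on low counts only through the sgUba1 tumors. It was thus open to the test only because it was high there, and the call describes these tumors without further support. The call was lost without sgNC replicate 1 (adjusted p = 0.0673) or replicate 2 (0.0667). RNA of Cd274, the PD-L1 gene, did not pass the test, at 32.6, 29.8 and 34.0 CPM in sgNC and 37.7, 26.8, 40.8 and 20.2 CPM in sgUba1 tumors (-0.04, 95% interval -0.44 to 0.36, adjusted p = 0.949).

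The other ligands of B16-BL6 tumors stayed short of the threshold. Pvr had 66.9, 65.8 and 60.3 CPM in sgNC and 46.3, 48.4, 58.6 and 49.6 CPM in sgUba1 tumors, 4 of 4 below all controls (log2 fold change -0.34, SE 0.086, adjusted p = 0.119), and DESeq2 called it (0.0197). Cd86 had 0.761, 0.838 and 1.39 CPM against 1.40, 1.48, 2.17 and 1.47 CPM, 4 of 4 above (0.71, SE 0.273, adjusted p = 0.251). Lgals9 differed by 0.32 (SE 0.131, adjusted p = 0.268), Nectin2 by -0.27 (SE 0.113, 0.272), Cd80 by 0.54 (SE 0.311, 0.411) and Cd276 by 0.08 (SE 0.0918, 0.71), with overlapping groups. Ido1, with 2 to 11 counts per tumor, was too low to test. The median change of the 8 tested members was 0.20, beside 0.01 over all genes. Macrophage markers summed to 96.6 to 155 CPM in sgNC and 153 to 188 CPM in sgUba1 tumors, with 0 of 8 called, and Ptprc was 4.48 to 9.42 against 10.3 to 11.6 CPM (0.77, SE 0.221, adjusted p = 0.162). All 8 macrophage markers were detected, and the part of these cells in the Pdcd1lg2 and Cd86 values was not tested.

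**Figure D3:**
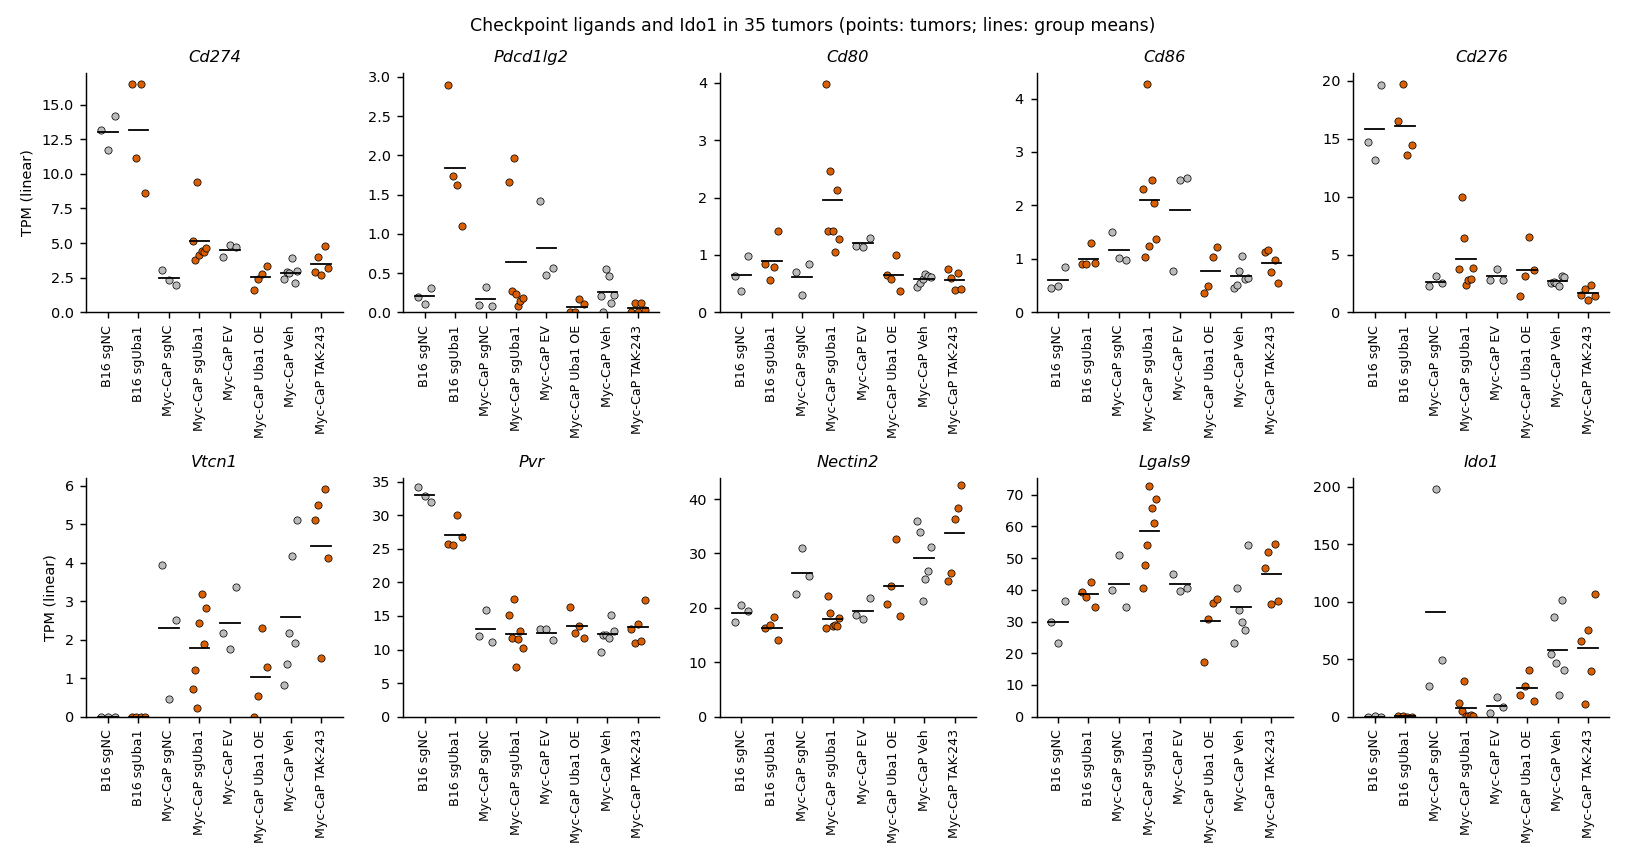
TPM (linear axes from 0) of the 10 genes in each of the 35 tumors (points, grey for control and orange for the other group of each experiment), with lines for group means. Pdcd1lg2 in the 4 B16-BL6 sgUba1 tumors (1.10 to 2.90 TPM) lay above the 3 controls (0.110 to 0.314 TPM), and Ido1 in Myc-CaP tumors ran from 0.385 to 198 TPM.

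In Myc-CaP tumors labelled sgUba1, Nectin2 was the 1 of 9 tested members to pass, where 3.04% of all genes did. It had 32.03, 43.2 and 37.0 CPM in sgNC and 20.7, 28.8, 25.1, 26.6, 26.1, 25.9 and 26.8 CPM in tumors labelled sgUba1 (lowest 20.7, median 26.1, highest 28.8), 7 of 7 below all controls (log2 fold change -0.54, SE 0.122, adjusted p = 0.0431). Without replicates 4 to 7 the value was -0.59 (adjusted p = 0.159), and the call was also lost in 8 of 10 fits that each left out 1 tumor (adjusted p up to 0.187), the exceptions being sgNC replicate 1 and sgUba1 replicate 2. It was lost too with limma-voom (0.0572), without the filter on low counts (0.0599) and with the replicate block (0.208). Over all genes, replicates 4 to 7 stood apart from the other tumors labelled sgUba1. Counts differed more in pairs across these sets (chi-square per degree of freedom 55.9 to 79.4) than in pairs within them (8.96 to 20.8). The SE takes the 7 tumors as independent units, which they may not be. In culture, Nectin2 was lower in sgUba1 cells, where 29.7% of all genes passed without IFN-γ, and higher with TAK-243. Whether those cells share a subline with these tumors was not given in the labels. The culture values are set beside the tumor values only as a description.

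Cd274 had 7.21, 5.03 and 4.58 CPM in sgNC tumors and a lowest, median and highest of 8.03, 10.7 and 19.9 CPM in tumors labelled sgUba1. All 7 lay above all controls (log2 fold change 1.06, SE 0.277, adjusted p = 0.0633), and DESeq2 called it (0.00538). Without replicates 4 to 7 the value was 1.19 (adjusted p = 0.176). Ido1 had 24.9, 173 and 44.9 CPM in sgNC and 9.56, 4.21, 26.2, 0.402, 0.662, 1.08 and 0.376 CPM in tumors labelled sgUba1 (-3.73, SE 1.09, adjusted p = 0.0827). The groups overlapped through replicate 3 alone. The 4 lowest values were those of replicates 4 to 7, the tumors whose Uba1 RNA was not low. Ido1 was called by limma-voom (0.0463) and DESeq2 (0.0382), and stood at -2.60 without those 4 tumors (adjusted p = 0.202). Lgals9 had 30.5 to 43.2 CPM in sgNC, 32.2 to 43.8 CPM in replicates 1 to 3 and 56.9 to 69.2 CPM in replicates 4 to 7 (0.53, SE 0.241, adjusted p = 0.214, and 0.07 without the last 4). Replicates 1 to 3 and 4 to 7 did not overlap for Ido1 or Lgals9 and overlapped for Cd274 and Nectin2, a description made after the values were seen. As given above, these sets also differed from each other over all genes. The share of all genes without overlap was not counted, so this is no result about these members.

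Of the antigen-presenting cell ligands, Cd80 had 0.604 to 1.37 CPM in sgNC and 1.31 to 3.36 CPM in tumors labelled sgUba1 (log2 fold change 1.06, SE 0.395, adjusted p = 0.145), and Cd86 had 1.51 to 2.40 against 1.51 to 6.16 CPM (0.85, SE 0.419, adjusted p = 0.248). Both pairs of groups overlapped. Cd276 differed by 0.33 (SE 0.198, adjusted p = 0.341), Pvr by -0.07 (SE 0.195, 0.858) and Vtcn1 by -0.33 (SE 0.734, 0.82). Without replicates 4 to 7 the values were 1.21 for Cd80, 0.99 for Cd86, 0.41 for Cd276, 0.07 for Pvr and -1.83 for Vtcn1, with adjusted p from 0.208 to 0.865. Pdcd1lg2 was not tested, at 1, 3 and 1 counts in sgNC and 18, 3, 22, 3, 1, 2 and 2 counts in tumors labelled sgUba1. The median change of the 9 tested was 0.33, beside 0.00 over all genes. Leukocyte genes were higher in the same tumors. Ptprc was called (1.06, SE 0.243, adjusted p = 0.0459), as were 3 of 8 macrophage markers, Adgre1 (1.15, SE 0.212), Cd68 (0.83, SE 0.159) and C1qa (0.82, SE 0.158). Without replicates 4 to 7 these 4 calls were lost, at 0.93 for Ptprc (adjusted p = 0.201), 0.97 for Adgre1 (0.149), 0.75 for Cd68 (0.137) and 0.87 for C1qa (0.134), and the median of the 9 members was 0.07, beside 0.01 over all genes. The macrophage sum was 155 to 333 CPM in sgNC and 255 to 455 CPM in tumors labelled sgUba1. Dendritic cell markers summed to 8.59 to 9.77 against 11.5 to 19.8 CPM, and T and NK cell markers to 9.97 to 11.7 against 12.9 to 30.1 CPM. Neither pair overlapped, with 0 of 5 and 0 of 4 tested genes called. In cultured Myc-CaP cells, with Ptprc at most 0.141 CPM, the same lists summed to 1.78 to 3.21 CPM and 2.10 to 7.78 CPM. These sums are therefore not a measure of leukocytes alone. The part of leukocytes in the Cd274, Cd80 and Cd86 values was not tested.

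Overexpression of Uba1 left no member past the threshold, 0 of 9 tested by edgeR and by DESeq2, where 0.0269% of all genes were called. At an unadjusted p under 0.05 stood 3 of the 9, as did 18.2% of all genes. Cd274 had 9.07, 11.1 and 10.6 CPM in EV and 4.06, 5.65, 6.52 and 7.82 CPM in Uba1 OE tumors, 4 of 4 below all controls (log2 fold change -0.77, SE 0.223, adjusted p = 0.157). Lgals9 was likewise below in 4 of 4, at 34.5 to 39.2 CPM in EV and 16.4 to 33.1 CPM in Uba1 OE (-0.41, SE 0.221, adjusted p = 0.357). Cd86 (-1.25, SE 0.507, adjusted p = 0.251) and Ido1 (1.46, SE 0.544, adjusted p = 0.226) overlapped. Pdcd1lg2 had 13, 4 and 5 counts in EV and 0, 0, 2 and 1 in Uba1 OE tumors and was not tested. The median of the 9 was -0.41, beside 0.00 over all genes. Macrophage markers summed to 224 to 267 CPM in EV and 87.9 to 254 CPM in Uba1 OE tumors, 0 of 8 called. Dendritic cell markers summed to 10.8 to 15.2 against 4.66 to 8.15 CPM and T and NK cell markers to at least 16.1 against at most 10.5 CPM, neither pair overlapping, with 0 of 3 and 0 of 2 tested genes called. In cultured Myc-CaP cells the dendritic cell list summed to 1.78 to 3.21 CPM and the T and NK list to 2.10 to 7.78 CPM. The part of leukocytes in the members' values was not tested.

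In tumors of mice given TAK-243, 0 of 9 tested members passed by edgeR and by DESeq2, where 0.145% of all genes did, and 1 had an unadjusted p under 0.05, as did 15.0% of all genes. That was Cd276, at a lowest, median and highest of 3.96, 4.86 and 6.65 CPM with vehicle and 2.89, 4.02, 2.14, 4.31 and 3.11 CPM with TAK-243 (log2 fold change -0.60, SE 0.19, adjusted p = 0.184), with overlapping groups. Pvr, higher in treated cells, had 18.03, 22.1 and 29.1 CPM as the lowest, median and highest with vehicle and 21.97, 18.7, 24.9, 18.1 and 33.9 CPM with TAK-243 (0.06, 95% interval -0.26 to 0.38, adjusted p = 0.888). Cd274 differed by 0.21 (-0.12 to 0.54, adjusted p = 0.58) and Ido1 by 0.00 (-1.01 to 1.01, adjusted p = 0.998). In cells the Pvr value was 3.01, at another dose and time. Macrophage markers summed to 121 to 171 CPM with vehicle and 144 to 318 CPM with TAK-243, with 0 of 8 called.

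Set against each other, the sgUba1 effects of the 2 tumor models differed for 0 members by edgeR, where 1.52% of all genes did, and 1 had an unadjusted p under 0.05, as did 18.3% of all genes. That was Cd274, with an effect of -0.04 in B16-BL6 and 1.06 in Myc-CaP tumors. The difference from the joint fit was -1.10 (SE 0.372, adjusted p = 0.132), called by DESeq2 (0.0476). It was -1.23 without the 4 tumors whose Uba1 RNA was not low (adjusted p = 0.166).

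Within groups of tumors, Lgals9 and Cd86 were higher where macrophage markers were higher. Over the 35 tumors, as deviations from each group's mean, Lgals9 correlated with the mean of 8 macrophage markers at Pearson's r = 0.64 (permutation p = 0.00018 within groups, adjusted p = 0.00856 over 14265 genes) and Spearman's rho = 0.66 (permutation p = 7e-05). Cd86 correlated at r = 0.55 (permutation p = 0.00087, adjusted p = 0.02) and rho = 0.52 (permutation p = 0.0035). These were the 2 called of 7 members tested, where 4.38% of all genes were called with a positive r. Without the 2 tumors farthest from the median, a Uba1 OE and a TAK-243 tumor, r was 0.58 for Lgals9 and 0.47 for Cd86. Within the 4 experiments Lgals9 had r of 0.88 (n = 7), 0.43 (n = 10), 0.88 (n = 7) and 0.57 (n = 11), and Cd86 had 0.75, 0.33, 0.64 and 0.61. Cd274 (r = 0.46, permutation p = 0.0108, adjusted p = 0.0824) and Cd276 (r = 0.57, permutation p = 0.0241, adjusted p = 0.131) did not pass. Cd80 had r = 0.16, Nectin2 -0.03 and Pvr -0.28, and the last was 0.04 without the 2 farthest tumors. Lgals9 was abundant in cultured cells where macrophage markers were near 0, and Cd86 was at 0 there.

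**Figure D4:**
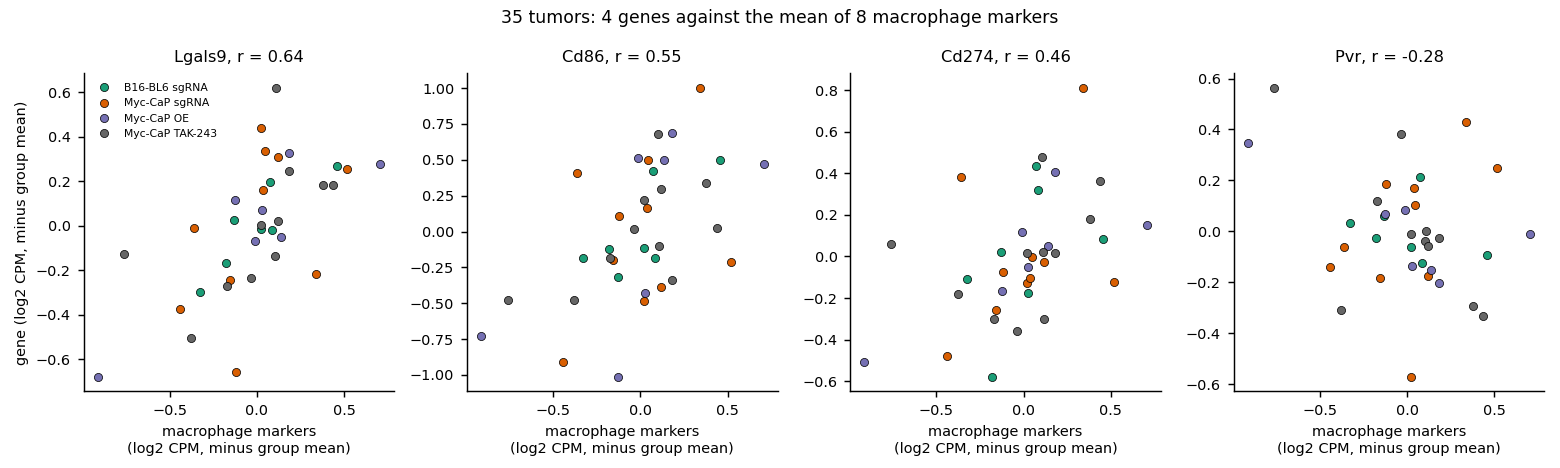
Each of 35 tumors as a point, with the mean log2 CPM of 8 macrophage markers minus its group mean (horizontal) against log2 CPM of the gene minus its group mean (vertical), colored by experiment. Lgals9 (r = 0.64) and Cd86 (r = 0.55) sloped upward, and Pvr (r = -0.28) did not.

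Among the genes whose pattern across the 35 tumors was most like that of Cd274 were Igtp (r = 0.81) and Irgm2 (0.80), and among those most like Cd86 were Gbp5 (0.84) and Il2rb (0.81), among 14272 genes compared on deviations from group means. Over the 16 cell libraries, as deviations from the experiment mean, the genes most like Cd274 were Rbp2 (0.96), 1810030O07Rik (0.93) and Mtfr1 (0.92) among 14244 genes. These are descriptions without a test, and libraries of 1 treatment share much of their variation.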

How the data were processed

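RNA of 35 tumors and 16 cell libraries was sequenced after Qiagen extraction, with KAPA HyperPrep libraries. Per the labels poly-A RNA was selected, while the study's methods describe ribosomal depletion, which can change the share of RNA that is not polyadenylated. The submitters' processing notes name kallisto and mm10, whose versions are not given in the sources used here. The authors deposited expected counts per gene, with 31.7% of all values not whole, and TPM. Doses in mice, IFN-γ exposure and ages were taken from the study's methods.

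Groups came from the labels. Expected counts were rounded. Each experiment was fitted on its own with edgeR 4.0.16 (quasi-likelihood test, TMM scaling, filterByExpr, R 4.3.3), with p-values adjusted by Benjamini-Hochberg over all genes tested, and the 2 tumor models together for the difference of their effects. The correlation used 100000 permutations within groups, log2 CPM with a prior count of 2 and Benjamini-Hochberg over all genes. Unadjusted p-values and intervals came from the same fits. Named beside the 10 members were genes of the related lists, up to 3 per list and comparison with the largest change among those called. The members and lists were chosen with earlier results of these data known. Alternatives were RLE scaling, no filter, limma-voom 3.58.1, DESeq2 1.42.0, each replicate left out and the replicate number as a block. Another, chosen after seeing the data, left out the 4 Myc-CaP tumors whose Uba1 RNA was not low. Scripts were tested on simulated data. Of 75 replicate pairs 0 were identical, and counts of every pair differed by more than sampling noise (chi-square per degree of freedom 1.81 to 91.8). Intervals on counts cover counting error only. Sequences came from RefSeq. Results for 1 gene that the rule would name are not reported here.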

Additional observations from a re-analysis of the deposited data

Results flagged for a closer look

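Single libraries stood apart in 4 of the 47 combinations of gene and group with 4 to 10 tumors that were examined by the gap to the nearest tumor over the group's range. Chance alone marks about 1 in 20 such groups. Cd86 in B16-BL6 sgUba1 replicate 3 was 2.17 CPM, with the other 3 tumors at 1.40 to 1.48 CPM. In Myc-CaP tumors labelled sgUba1, replicate 3 had Cd274 at 19.9 CPM (others 8.03 to 11.2 CPM) and Ido1 at 26.2 CPM (others 0.376 to 9.56 CPM). Without this tumor the change in Cd274 was 0.88 (adjusted p = 0.0407) and that in Ido1 was -4.88 (adjusted p = 0.0332). Vtcn1 in the TAK-243 tumor of replicate 3 was 2.46 CPM, with the others at 7.19 to 8.48 CPM.

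Responses to IFN-γ differed between cell groups by an interaction term in 3 cases. For Nectin2 the response of sgUba1 minus NC cells was -0.60, and for Ido1 it was 1.31. For Ido1 the response with TAK-243 minus that without was 0.70, with an adjusted p of 0.0597 without replicate 2 of the IFN-γ group and 0.0626 without replicate 2 of the TAK-243 plus IFN-γ group.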

How the results depend on the processing

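No value of a called member changed sign under any alternative. Values that were not called changed sign in 10 fits with other settings and in 40 with 1 replicate left out. The number of members called moved in 12 fits. DESeq2 gave 2 in B16-BL6 sgUba1, 3 in Myc-CaP sgUba1, 1 for the difference between the 2 models, and 0 for IFN-γ in NC cells, for IFN-γ with TAK-243 and for the TAK-243 interaction. In the last 2 and in sgUba1 cells it gave Ido1 no adjusted p, so it is not among these counts. No filter gave 0 in Myc-CaP sgUba1 and 2 for IFN-γ in sgUba1 cells, and RLE gave 0 for IFN-γ in NC cells. Without the 4 Myc-CaP tumors whose Uba1 RNA was not low, 0 members passed. With 1 replicate left out, counts ranged from 0 to 2 in both sgUba1 tumor models, 0 to 0 for Uba1 OE, TAK-243 tumors and the model difference, 0 to 2 for IFN-γ in NC cells, 1 to 2 in sgUba1 cells, 2 to 3 in untreated cells and 1 to 2 with TAK-243, 3 to 3 and 3 to 4 for sgUba1 without and with IFN-γ, 6 to 7 and 4 to 4 for TAK-243 without and with IFN-γ, and 1 to 3 and 0 to 1 for the 2 interactions. The cause was not tested.

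The replicate block gave 0 called members in Myc-CaP sgUba1 tumors and 2 for IFN-γ in sgUba1 cells, and changed no other count of members by more than 1.5 times. Same-numbered libraries did not deviate together in every pair (correlations from -0.18 to 0.32), so the numbers were not taken to pair samples. Over all genes, calls in tumors went from 127, 492, 4 and 25 to 532, 1862, 723 and 558 with DESeq2, in the order B16-BL6, Myc-CaP sgUba1, Uba1 OE and TAK-243, and to 127, 2, 0 and 8 with the block. Without the filter they were 204, 359, 33 and 45. In Myc-CaP sgUba1 tumors leaving out 1 tumor gave as few as 10.

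Genes under about 10 counts per library, among them Cd80 and Cd276 in cells and Pdcd1lg2 in Myc-CaP tumors, allow no firm statement at this depth. Expected counts split reads between related transcripts by estimate.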

Other observations

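Tigit, the T cell receptor gene whose product binds PVR and NECTIN2, was present in every one of the 16 cultured Myc-CaP libraries at 19.2 to 32.8 CPM, although Pdcd1 and Ctla4 were at 0 counts in all 16 and the T cell gene Cd3e was at most 0.187 CPM. Per length it stood at 38.1 to 65.2 TPM, the range of Lgals9, among the more abundant members there. In Myc-CaP tumors it ran from 1.91 to 29.2 CPM with a median of 4.15 CPM, and the highest value was in sgNC replicate 2, the tumor that also had the highest Ido1 (173 CPM). In B16-BL6 tumors Tigit was 1.64 to 2.89 CPM. These values were picked after they were seen.

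Ido2, the paralog of Ido1, was 0.43 to 18.7 CPM in Myc-CaP tumors and 0.985 to 2.94 CPM in the cells, and Tdo2, which opens the same pathway from tryptophan, was at 0 in all 16 cell libraries.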
